A study of Mus musculus with 6 samples.

Results

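The genes described here are 8 transcription regulators of pachytene spermatocytes and spermatids in the mouse: *Mybl1*, *Tcfl5*, *Sox30*, *Rfx2*, *Crem*, *Fhl5*, *Tbpl1* and *Taf7l*. They were chosen by name, with earlier results of these data in view, so their counts of calls are a description and not independent evidence. All 8 were found among the 54532 genes of the deposited expression table. RNA-seq libraries were made from STRA8+ germ cells of the testis, with 3 libraries of control mice (genotype label Cre) and 3 libraries of *Srsf1* conditional knockout (cKO) mice (genotype label Srsf1 knockout). SRSF1 is a splicing factor of the SR protein family. The promoter that drives Cre, the strain and age of the mice, the *Srsf1* alleles of the controls and the way STRA8+ cells were isolated are not given in the sources used here. The labels do not say that the libraries of a group came from separate animals, so each p-value measures the spread between these libraries, which may be technical. Values are FPKM, fragments per kilobase of a gene relative to the size of the library, and between 14447887 and 17310353 fragments per library were counted on genes.

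During the long pachytene stage of meiosis, male germ cells switch on a large set of genes, many of which serve the later building of the sperm. MYBL1 (A-MYB) and the basic helix-loop-helix factor TCFL5 act in pachytene spermatocytes, and SOX30, RFX2 and CREM act from late meiosis into round spermatids, where FHL5 (ACT) serves as a coactivator of CREM. TBPL1 (TRF2) and TAF7L are germ cell relatives of the general transcription factors TBP and TAF7.

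The targeted gene was examined first. *Srsf1* had 84.7, 45.2 and 51.9 FPKM in control replicates 1, 2 and 3, and 5.08, 4.94 and 5.17 FPKM in cKO replicates 1, 2 and 3. Every cKO library lay below every control library, and none went against its genotype label (log2 fold change -3.29, SE 0.22, limma adjusted p = 5.6e-05). The marker of the labelled cells, *Stra8*, was abundant in all 6 libraries, with 262, 222 and 249.5 FPKM in control and 242, 313 and 262 FPKM in cKO replicates 1, 2 and 3, and was not called (adjusted p = 0.36). Of the 3 other germ cell markers checked, *Dazl* rose (log2 fold change 0.43, adjusted p = 0.016), *Kit* was not called (0.14, adjusted p = 0.15) and *Ddx4* fell (-0.24, adjusted p = 0.048). The call of *Ddx4* was lost under quantile normalization and with FPKM computed from the fragments counted.

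The control libraries also held transcripts of later germ cells, and one of them stood apart in these. The summed level of 8 late spermatid markers, of which *Tnp2* had the highest mean in control, was 2748, 8907 and 2683 FPKM in control replicates 1, 2 and 3, and 4.98, 5.77 and 4.81 FPKM in cKO replicates 1, 2 and 3. The summed level of 7 round spermatid markers (most abundant in control *Tssk2*) was 71.5, 176 and 75.7 FPKM in control and 4.53, 5.81 and 5.67 FPKM in cKO. Control replicate 2 was thus the highest library for both spermatid lists. All 8 late spermatid and all 7 round spermatid markers fell in cKO, with median log2 fold changes of -7.90 and -2.79 against -0.0082 for all 15451 genes tested. The summed level of 8 pachytene markers (most abundant in control *Ldhc*) was 770.0, 837 and 664 FPKM in control and 121, 90.4 and 102 FPKM in cKO. In cKO the most abundant was *Hspa2*, with 91.7, 67.1 and 72.8 FPKM in replicates 1, 2 and 3. Of the 8 pachytene markers, 7 fell and *Hist1h1t*, named after its value was seen, rose, with a median log2 fold change of -2.48. *Pgk2*, a pachytene marker, had fewer than 3 fragments in every cKO library.

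Markers of earlier stages moved less. The summed level of 9 early meiotic prophase markers (most abundant *Sycp3*) was 1077, 791 and 990.4 FPKM in control and 870.0, 1073 and 814 FPKM in cKO, so that the groups overlapped. Of these 9 genes, 2 were called lower (*Spo11* and *Rec8*), and the median log2 fold change was -0.19. Among all genes tested, 22.2% were called lower and 11.8% higher. Of 7 undifferentiated spermatogonia markers tested, limma called 1 lower (*Id4*) and none higher (1 at an unadjusted p under 0.05), with a median log2 fold change of 0.063. Of 6 differentiating spermatogonia markers, it called 1 lower (*Dmrtb1*) and none higher (4 at an unadjusted p under 0.05), with a median of 0.26. In that list the 5 markers other than *Dmrtb1* had log2 fold changes from 0.14 (*Kit*) to 0.36 (*Rhox13*). Under quantile normalization, 2 and 5 markers of these spermatogonia lists were called higher. *Spo11*, *Rec8*, *Id4*, *Dmrtb1* and *Rhox13* are named after their values were seen. In bulk libraries such as these, fewer cells of a stage and less RNA per cell cannot be told apart, and the part of the lower late-stage markers in the results that follow was not tested.

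Somatic markers were present in both groups. In this paragraph, the gene in brackets has the highest mean of its list over the 6 libraries. The summed level of 8 Sertoli cell markers (*Clu*) was 85.6, 68.1 and 103 FPKM in control and 146, 56.3 and 84.1 FPKM in cKO. That of 6 Leydig cell markers (*Insl3*) was 5.45, 14.0 and 2.95 FPKM in control and 10.2, 6.34 and 10.7 FPKM in cKO. *Star* was above *Insl3* in control replicates 1 and 3 and in cKO replicates 1 and 2. For 4 peritubular markers (*Tagln*) the sums were 3.38, 6.01 and 3.81 FPKM in control and 7.42, 6.49 and 6.97 FPKM in cKO, and for 7 markers of macrophages and blood (*C1qa*) they were 9.76, 21.2 and 9.16 FPKM in control and 7.61, 11.9 and 11.6 FPKM in cKO. The peritubular sum was higher in every cKO library than in every control library, and the other sums overlapped between the groups. No marker of these lists was under 3 fragments in all 6 libraries, while *Insl3*, *Lhcgr*, *Hbb-bs* and *Hba-a1* were listed at 0 in some. Of the 25 somatic markers, 14 were tested, and limma called none lower, also at an unadjusted p under 0.05. It called 1 higher, *Rhox5* of Sertoli cells (log2 fold change 0.72, adjusted p = 0.028), named after its value was seen. At an unadjusted p under 0.05, 3 of the 14 were higher. Adjusted calls took in 22.2% (lower) and 11.8% (higher) of all genes tested. The number called higher was 2 with median-of-ratios scaling, 3 with FPKM computed from the fragments counted and 4 under quantile normalization.

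All 8 regulators passed the filter on low values, a mean of 1 FPKM or more over the 6 libraries, and log2 fold changes throughout are of FPKM + 1, cKO against control. *Fhl5* passed only through its control libraries, as did *Gtf2a1l*, *Spz1* and *Hsfy2* below and several spermatid markers above. A gene near 0 in cKO enters the test only if it is high in control, so the filter set the direction of such calls. Testing all genes above 0 also called *Fhl5* lower (limma adjusted p = 0.00096). Of the 8, 6 were called lower in cKO at an adjusted p of at most 0.05, against 22.2% of all genes tested, and 1 was called higher, against 11.8% of all genes tested. The fallen genes were *Fhl5*, *Sox30*, *Rfx2*, *Crem*, *Tcfl5* and *Tbpl1*, the risen gene was *Taf7l*, and *Mybl1* was not called. The cKO and control libraries did not overlap for 7 of the 8, as for 50.4% of all genes tested. The median log2 fold change of the 8 genes was -0.95, against -0.0082 for all genes tested, and 4 of them fell by more than 1 on the log2 scale. Among all calls, 34.6% were higher in cKO. Under quantile normalization, with a median log2 fold change of 0.21 over all genes, 67.1% were, so that calls under this scaling are read relative to that shift. The numbers of regulators called lower and called higher were the same under that normalization, where *Crem* had a log2 fold change of -0.88.

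In control libraries, *Taf7l* was the most abundant of the 8 genes per length, followed by *Tcfl5*, *Tbpl1*, *Fhl5*, *Sox30*, *Mybl1*, *Rfx2* and *Crem*. From *Tbpl1* to *Rfx2*, each gene's range of FPKM overlapped that of its neighbour, so the order of neighbours there did not exceed the spread between libraries. Some genes further apart in the order did not overlap: the range of *Tbpl1* lay above that of *Mybl1*, and those of *Tbpl1*, *Fhl5* and *Sox30* lay above that of *Rfx2*. *Taf7l*, *Tcfl5* and *Crem* were apart from their neighbours. In cKO libraries the order was *Taf7l*, *Tcfl5*, *Tbpl1*, *Mybl1*, *Sox30*, *Rfx2*, *Crem* and *Fhl5*. There, only the neighbours *Tbpl1* and *Mybl1*, and *Sox30* and *Rfx2*, overlapped. The place of *Fhl5* in the control order rests on control replicate 2 (58.4 FPKM), as its level was 18.6 and 19.3 FPKM in control replicates 1 and 3. In cKO it was the last of the 8.

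**Figure D1:**
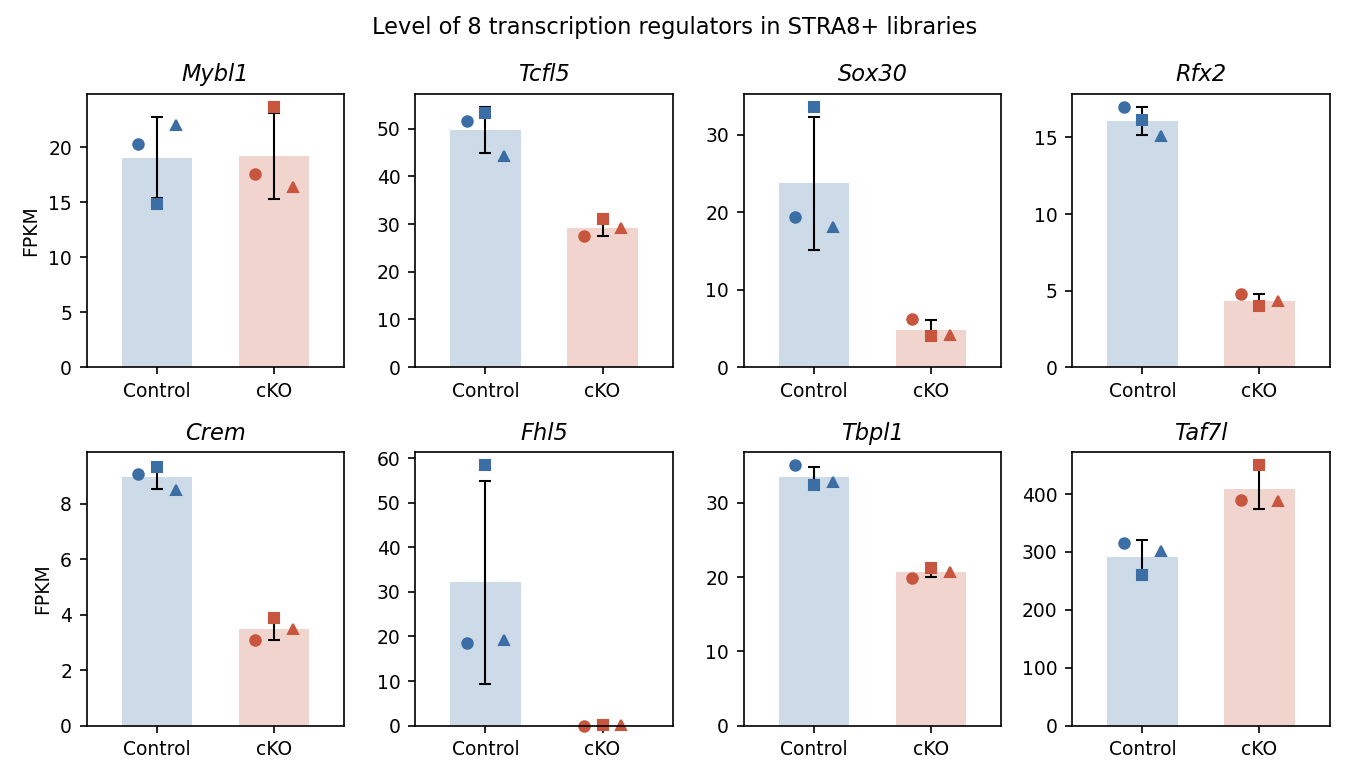
FPKM (vertical axes, from 0) of the 8 regulators in control and cKO libraries, with replicates 1, 2 and 3 as circles, squares and triangles, bars for the mean and error bars for the SD (n = 3). *Fhl5* was at or near 0 in the cKO libraries, *Taf7l* was higher there, and the groups of *Mybl1* overlapped.

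*Mybl1* (ENSMUSG00000025912, chr1:9667415-9700209, minus strand, GRCm38), which encodes a pachytene activator of meiotic genes and piRNA precursors, had 20.3, 14.9 and 22.0 FPKM in control replicates 1, 2 and 3 and 17.6, 23.7 and 16.4 FPKM in cKO replicates 1, 2 and 3. The lowest control library and the highest cKO library were both replicate 2, and the groups overlapped. The log2 fold change was 0.014, with a 95% interval from -0.42 to 0.45 and an adjusted p of 0.96. It was -0.15 without control replicate 2, and -0.14 without cKO replicate 2. The summed early meiotic markers were likewise lowest in control replicate 2 and highest in cKO replicate 2 within their groups, and their part in this spread was not tested. Its relative *Mybl2* (B-MYB) had 11.3, 12.8 and 11.5 FPKM in control and 13.3, 13.6 and 15.0 FPKM in cKO. The groups of *Mybl2* did not overlap, but the difference did not pass the test (log2 fold change 0.22, adjusted p = 0.094), except under quantile normalization (0.39, adjusted p = 0.012). *Myb*, the remaining gene of the family, had at most 0.133 FPKM in any library and was not tested.

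*Tcfl5* (ENSMUSG00000038932, chr2:180621956-180642708, minus strand) had 51.7, 53.4 and 44.3 FPKM in control and 27.5, 31.0 and 29.2 FPKM in cKO replicates 1, 2 and 3. All cKO libraries lay below all control libraries, and the cKO mean was 58.7% of the control mean (log2 fold change -0.75, SE 0.092, adjusted p = 0.0010). Among 6 germ cell helix-loop-helix genes and E proteins tested, *Tcfl5* was the only one called lower, and *Tcf3*, which encodes an E protein, was called higher (log2 fold change 0.40, adjusted p = 0.029). *Sohlh1* and *Sohlh2*, which encode factors of differentiating spermatogonia, had log2 fold changes of 0.23 and 0.31 and were not called, nor were *Tcf12* (0.23) and the oocyte gene *Figla* (0.041). The list's median log2 fold change was 0.23, and 22.2% of all genes tested were called lower and 11.8% higher. Its number of genes called higher was 3 with FPKM computed from the fragments counted and 4 under quantile normalization, while the single lower call held under both.

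*Sox30* (ENSMUSG00000040489, chr11:45980310-46017994, plus strand), whose product is needed for spermatid development, had 19.4, 33.6 and 18.1 FPKM in control and 6.24, 4.06 and 4.13 FPKM in cKO replicates 1, 2 and 3. Control replicate 2 was the highest library and cKO replicate 1 the highest of its group, and the groups were apart. The cKO mean was 20.3% of the control mean (log2 fold change -2.05, SE 0.25, adjusted p = 0.0010). Without control replicate 2, which was also high in spermatid markers, the log2 fold change was -1.78 (adjusted p = 0.00078). From 178 to 294 fragments per cKO library were counted on the gene. Of 17 genes of the SOX family, 12 were tested. Of these, 2 fell and 1 rose, against 22.2% lower and 11.8% higher of all genes tested. The list's median log2 fold change was 0.19. Besides *Sox30*, *Sox6* fell (-0.93, adjusted p = 0.0040) and *Sox4* rose (0.48, adjusted p = 0.047). Under quantile normalization 4 SOX genes were called higher.

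*Rfx2* (ENSMUSG00000024206, chr17:56775897-56831013, minus strand) encodes a winged helix factor that acts on genes of the sperm flagellum and of motile cilia. It had 17.0, 16.2 and 15.1 FPKM in control and 4.76, 3.97 and 4.32 FPKM in cKO replicates 1, 2 and 3. The spread within both groups was small beside the gap between them, and control replicate 2 did not stand out. The cKO mean was 27.1% of the control mean (log2 fold change -1.68, SE 0.094, adjusted p = 2.7e-05). Of the 10 genes of the RFX family and its partners, 9 were tested. Of these, 3 fell and 1 rose, against 22.2% lower and 11.8% higher of all genes tested. The list's median log2 fold change was -0.031. *Rfx4* (-2.50, adjusted p = 7.4e-05) and *Rfx8* (-2.39, adjusted p = 2.9e-05) fell further than *Rfx2* on this scale, from mean levels of 5.15 and 5.60 FPKM in control. *Rfx3*, a factor of ciliated cells, rose from 2.46, 2.70 and 2.53 FPKM to 4.22, 4.54 and 3.91 FPKM (0.55, adjusted p = 0.0075). *Rfx1* had 13.1, 15.3 and 14.3 FPKM in control and 14.3, 12.3 and 13.0 FPKM in cKO, with overlapping groups (-0.10, adjusted p = 0.44). Under quantile normalization its log2 fold change was 0.056.

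Genes of cilia and the flagellum, the kind of gene on which RFX factors act, were examined as a list. Of 12 such genes tested, limma called 11 lower in cKO, against 22.2% of all genes tested, and 1 was not called. None was called higher (none at an unadjusted p under 0.05 either), and the median log2 fold change was -2.33. The counts were the same with median-of-ratios scaling, quantile normalization and FPKM computed from the fragments counted. *Tekt4* (-4.25), *Tekt1* (-4.04), *Dnaaf1* (-3.82) and *Spag6l* (-3.75) fell the most, with adjusted p from 1.5e-06 to 2.1e-05. Tektins are filament proteins of axonemes, *Dnaaf1* encodes a dynein assembly factor, and *Spag6l* encodes a protein of the central pair. The spermatid marker sums given above fell in the same libraries, and their part in this result was not tested.

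*Crem* (ENSMUSG00000063889, chr18:3266048-3337748, minus strand), the cAMP-responsive regulator of spermatid genes, had 9.06, 9.34 and 8.48 FPKM in control and 3.09, 3.88 and 3.47 FPKM in cKO replicates 1, 2 and 3. The libraries of each group lay close together, with no overlap, and the cKO mean was 38.8% of the control mean (log2 fold change -1.16, SE 0.10, adjusted p = 0.00022). The annotation (GENCODE M21) holds 39 transcripts of *Crem*, of which 32 are protein-coding. Activator and repressor forms of CREM are made from this gene through alternative promoters and splicing, and the gene table does not tell them apart.

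The relatives and coactivators of CREM did not fall alike. *Creb1* had 4.85, 4.57 and 4.83 FPKM in control and 4.40, 5.85 and 4.89 FPKM in cKO, with overlapping groups (log2 fold change 0.067, adjusted p = 0.69). *Atf1* had 41.5, 40.3 and 38.5 FPKM in control and 36.6, 34.3 and 33.8 FPKM in cKO. For *Atf1* the groups were apart, but the difference did not pass the test (-0.20, adjusted p = 0.061). Of 9 genes of the CREB family and its coactivators, all tested, 2 fell, 3 rose and 4 were not called. The shares of all genes tested were 22.2% lower and 11.8% higher, and the list's median log2 fold change was 0.073. The second fallen gene was *Creb3l4*, a spermatid-expressed member, with 19.4, 55.8 and 18.8 FPKM in control and 2.58, 3.78 and 3.61 FPKM in cKO (-2.73, adjusted p = 0.0023). Its highest library was control replicate 2, as for *Sox30*. The coactivator genes *Crebbp* (0.55, adjusted p = 0.012), *Crtc1* (0.38, adjusted p = 0.017) and *Ep300* (0.31, adjusted p = 0.041) rose, and under quantile normalization *Creb1* was called higher too (0.37, adjusted p = 0.044). *Ep300* is named after its value was seen.

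*Fhl5* (ENSMUSG00000028259, chr4:25199908-25242876, minus strand), which encodes a LIM-only coactivator of CREM, had 18.6, 58.4 and 19.3 FPKM in control and 0, 0.0583 and 0.0562 FPKM in cKO replicates 1, 2 and 3. Control replicate 2 was the highest by far, and the cKO libraries were at or near 0. In fragments, 359, 1049 and 391 were counted in control replicates 1, 2 and 3 and 0, 1 and 1 in cKO replicates 1, 2 and 3. Scaled to the fragments of each group, 1799 against 2 fragments is a ratio of control to cKO of 807, with a 95% counting interval from 223 to 6668 that covers counting error only. The ratio was 487 (134 to 4030) without control replicate 2, which held 1049 of the control fragments, and 529 (146 to 4373) without cKO replicate 1, which held none. The log2 fold change of -4.79 (SE 0.41, adjusted p = 0.00018) understates this, since 1 is added to each FPKM, and it was -7.68 with 0.1 added instead. Without control replicate 2 it was -4.27 (adjusted p = 5.7e-06). By log2 fold change, the fall of *Fhl5* ranked 100 among the 15451 genes tested.

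The FHL family split into both directions. *Fhl4*, also a testis gene, had 104, 130.2 and 87.6 FPKM in control and 3.87, 3.48 and 2.28 FPKM in cKO (log2 fold change -4.69, adjusted p = 7.1e-06). *Kif17*, whose testis product carries FHL5 out of the nucleus, had 12.9, 25.1 and 13.4 FPKM in control and 4.71, 4.05 and 5.31 FPKM in cKO (-1.61, adjusted p = 0.0027). *Fhl4*, *Kif17* and *Fhl5* fell, and all 3 had their highest level in control replicate 2. *Fhl3* (0.95, adjusted p = 0.0080) and *Fhl1* (0.39, adjusted p = 0.014), which are best known from muscle, rose. *Fhl2* was under the filter, with at most 0.906 FPKM. Thus 3 of the 5 genes tested fell and 2 rose, against 22.2% lower and 11.8% higher of all genes tested. The counts held under the 3 other scalings (median of ratios, quantile, fragments counted), and the list's median log2 fold change was -1.61.

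*Tbpl1* (ENSMUSG00000071359, chr10:22703879-22731938, minus strand), a core promoter factor without which round spermatids do not mature, had 35.1, 32.4 and 32.8 FPKM in control and 19.9, 21.3 and 20.8 FPKM in cKO replicates 1, 2 and 3. Both groups were tight and apart, and the cKO mean was 61.8% of the control mean (log2 fold change -0.67, SE 0.067, adjusted p = 0.00038). *Tbp*, the general factor, had 8.12, 6.43 and 6.80 FPKM in control and 6.60, 7.24 and 6.46 FPKM in cKO, and its groups overlapped (-0.058, adjusted p = 0.71). Its log2 fold change was 0.21 under quantile normalization and 0.029 without control replicate 1. TBPL1 binds TFIIA, of which *Gtf2a1l* (ALF) encodes a germ cell form. *Gtf2a1l* had 20.6, 29.5 and 20.8 FPKM in control and 0.236, 0.0843 and 0 FPKM in cKO. Each cKO library had at most a trace of it (log2 fold change -4.46, adjusted p = 4.9e-06). Its somatic counterpart *Gtf2a1* (0.15), with *Gtf2a2* (-0.31) and *Gtf2b* (-0.32), was not called. Of the 6 genes of this list tested, limma called 2 lower and none higher (none at an unadjusted p under 0.05 either). The shares of all genes tested were 22.2% lower and 11.8% higher. The list's median log2 fold change was -0.32, and under quantile normalization 1 was called higher. *Tbpl2*, the oocyte member, was under 3 fragments in every library.

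*Taf7l* (ENSMUSG00000009596, chrX:134460118-134476490, minus strand), an X-linked relative of the TFIID subunit gene *Taf7*, had 316, 259.7 and 301 FPKM in control and 389.9, 450.1 and 388 FPKM in cKO replicates 1, 2 and 3. Every cKO library was higher than every control library, and the highest was cKO replicate 2. The cKO mean was 1.40 times the control mean (log2 fold change 0.49, SE 0.10, adjusted p = 0.012), and the rise ranked 1324 among the 15451 genes tested. *Taf7* rose to a like degree, from 29.5, 31.5 and 33.5 FPKM in control to 45.7, 45.6 and 44.0 FPKM in cKO (0.51, adjusted p = 0.0017). Among 16 TAF subunit genes, all tested, 5 rose, 1 fell and 10 were not called. The shares of all genes tested were 11.8% higher and 22.2% lower, and the list's median log2 fold change was -0.0042. *Taf5* (0.48, adjusted p = 0.0023) and *Taf1* (0.35, adjusted p = 0.030) were among the risen genes. The single fall, of *Taf2* (-0.24, adjusted p = 0.0498), was lost under quantile normalization, which called 7 genes higher, and with FPKM computed from the fragments counted.

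To ask whether a germ cell regulator moved apart from its relatives, the log2 ratio of their FPKM (1 added to each) was taken within each library for 7 pairs. For *Rfx2* over *Rfx3* it was 2.38, 2.21 and 2.19 in control and 0.14, -0.16 and 0.12 in cKO replicates 1, 2 and 3. For *Rfx2* over *Rfx1* the mean was 0.17 in control and -1.41 in cKO, and for *Crem* over *Creb1* it was 0.79 and -0.43. The order of FPKM thus turned for *Rfx2* and *Rfx1* and for *Crem* and *Creb1*, with the germ cell gene above its relative in all control libraries and below it in all cKO libraries. The order of *Crem* and *Creb1* depends on the gene lengths used for FPKM. In fragments, *Crem* was below *Creb1* in control replicates 1, 2 and 3 too (880, 844 and 865 against 1097, 963 and 1148). *Rfx2* and *Rfx1* turned in fragments as well. For *Crem* over *Atf1* the mean ratio was -2.04 in control and -3.01 in cKO, and for *Tbpl1* over *Tbp* it was 2.09 and 1.48. In these 5 pairs no cKO ratio fell within the range of the control ratios, and the two-sided exact permutation test gave p = 0.1 for each, the smallest that 3 against 3 libraries allow (0.14 after Benjamini-Hochberg adjustment over the 7 pairs).

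In the 2 other pairs the groups overlapped. The difference in the ratio, cKO minus control, was -0.20 for *Mybl1* over *Mybl2* (exact permutation p = 0.5, adjusted 0.58). It ranged from -0.42 without control replicate 2 to -0.055 without cKO replicate 3. For *Taf7l* over *Taf7* the ratio was 3.38, 3.01 and 3.13 in control and 3.06, 3.27 and 3.11 in cKO. Its difference was -0.020 (exact permutation p = 0.9, adjusted 0.9), and it ranged from -0.10 without control replicate 2 to 0.083 without control replicate 1.

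**Figure D2:**
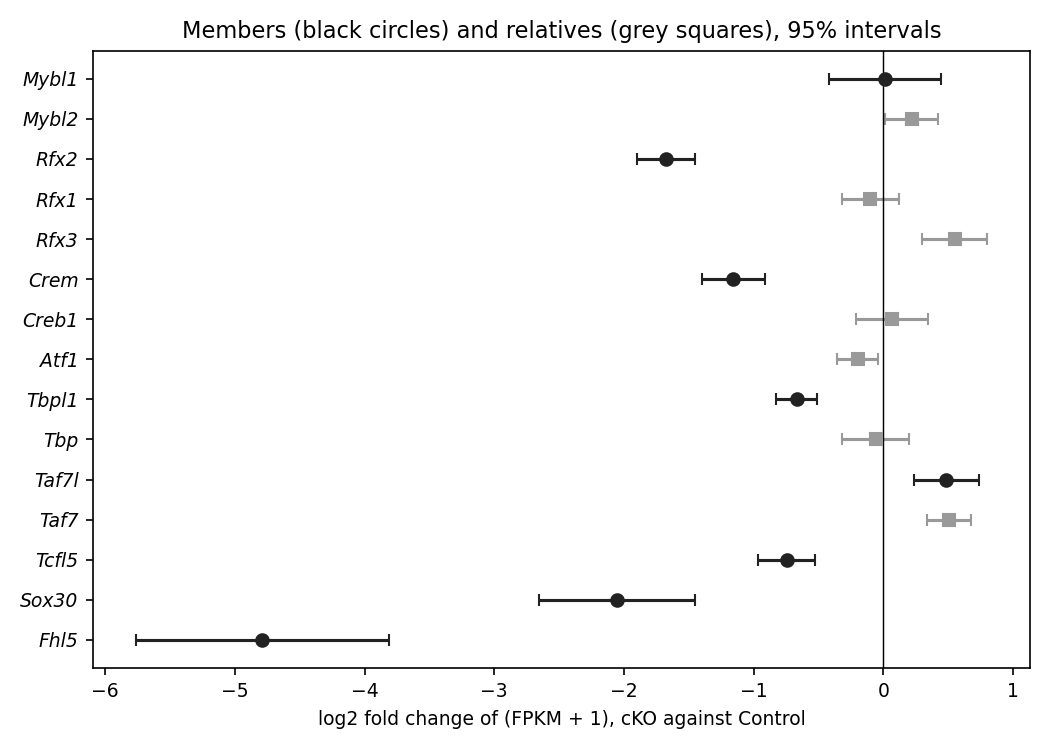
Log2 fold changes of FPKM + 1 (horizontal axis, cKO against control) of the 8 regulators (black circles) and 7 relatives (grey squares), with 95% intervals that are not adjusted for the number of genes. *Fhl5* lay lowest at -4.79, and *Taf7l* and *Taf7* lay side by side at 0.49 and 0.51.

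The table assigns a transcription factor family to 873 of the genes tested, among them *Mybl1*, *Tcfl5*, *Sox30*, *Rfx2* and *Crem*. Of the 873 genes, 11.1% were called lower and 15.3% higher, with a median log2 fold change of 0.12. Without the regulators described here, the shares were 10.7% and 15.4% of 868 genes. From the largest fall, *Sox30* ranked 16 of 873, *Rfx2* 20, *Crem* 26, *Tcfl5* 55 and *Mybl1* 326.

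Other regulators of meiosis and spermatid development were examined as a list of 20 genes, all tested. Of these, 12 fell, 2 rose and 6 were not called, against 22.2% lower and 11.8% higher of all genes tested. The list's median log2 fold change was -1.50. *Spz1*, which encodes a spermatogenic helix-loop-helix factor, had 67.8, 171 and 63.5 FPKM in control and 0.0828, 0 and 0.171 FPKM in cKO (-6.40, adjusted p = 2.7e-05). The POU factor gene *Pou5f2* had 9.23, 8.89 and 9.46 FPKM in control and 0.137, 0.196 and 0.0472 FPKM in cKO (-3.18, adjusted p = 4.5e-06). The heat shock factor gene *Hsfy2* was listed at 0 in every cKO library and had 5.97, 15.4 and 5.48 FPKM in control (adjusted p = 0.00055). For *Spz1* and *Hsfy2*, control replicate 2 was again the highest library, and for *Pou5f2* it was the lowest control library. *Egr4*, which encodes a zinc finger factor, rose (0.51, adjusted p = 0.046). Under quantile normalization 5 of the 20 genes were called higher, and the 12 lower calls were the same in number.

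Genes of the piRNA pathway, of which several are known targets of MYBL1, formed a further list. Of 13 genes tested with limma, 9 fell and none rose (none at an unadjusted p under 0.05 either). The shares of all genes tested were 22.2% lower and 11.8% higher, and the list's median log2 fold change was -0.31. *Tdrd6* had 27.1, 19.9 and 22.3 FPKM in control and 0.324, 0.232 and 0.298 FPKM in cKO (-4.22, adjusted p = 2.8e-06). *Piwil1* (MIWI), which encodes the PIWI protein of pachytene piRNAs, had 67.5, 45.7 and 47.5 FPKM in control and 2.69, 2.29 and 2.69 FPKM in cKO (-3.92, adjusted p = 6.3e-06). *Tdrd5* (-0.88, adjusted p = 0.00031) and *Mael* (-0.43, adjusted p = 0.0061) fell less. The number of lower calls depended on the scaling: it was 7 with FPKM computed from the fragments counted, and under quantile normalization 4 genes were called lower and 1 higher.

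Among the control libraries, the regulators differed in how far replicate 2 stood from the others. The level of control replicate 2 over the mean of control replicates 1 and 3 was 3.08 for *Fhl5* and 1.79 for *Sox30*. The same ratio was 3.28 for the summed late spermatid markers and 2.39 for the summed round spermatid markers. *Tcfl5* (1.11), *Crem* (1.06), *Rfx2* (1.01) and *Tbpl1* (0.955) lay near 1. The summed pachytene markers had 1.17, but this sum is led by *Ldhc*, and single markers of the list differed. *Calr3* had 10.2, 27.9 and 12.5 FPKM in control replicates 1, 2 and 3, and *Ldhc* and *Pgk2* were also highest in replicate 2. *Piwil1* was lowest there (67.5, 45.7 and 47.5 FPKM), and *Hspa2* lay between its values in replicates 1 and 3. *Taf7l* (0.842) and *Mybl1* (0.703) were lower in replicate 2, as were the early meiotic markers with 0.766. The summed markers of Leydig cells (3.33), macrophages and blood (2.24) and peritubular cells (1.67), at far lower levels, were also higher in control replicate 2. Those of Sertoli cells (0.724) were lower. The Leydig ratio rests on *Insl3*, with 2.14, 9.74 and 0 FPKM in control replicates 1, 2 and 3, where *Star* had 2.57, 2.76 and 2.77 FPKM. *Tagln* (1.59, 1.67 and 2.38 FPKM) and *Cd68* of macrophages (3.86, 2.49 and 2.58 FPKM) were not highest in control replicate 2. These ratios describe 1 library against 2 others and carry no test.

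**Figure D3:**
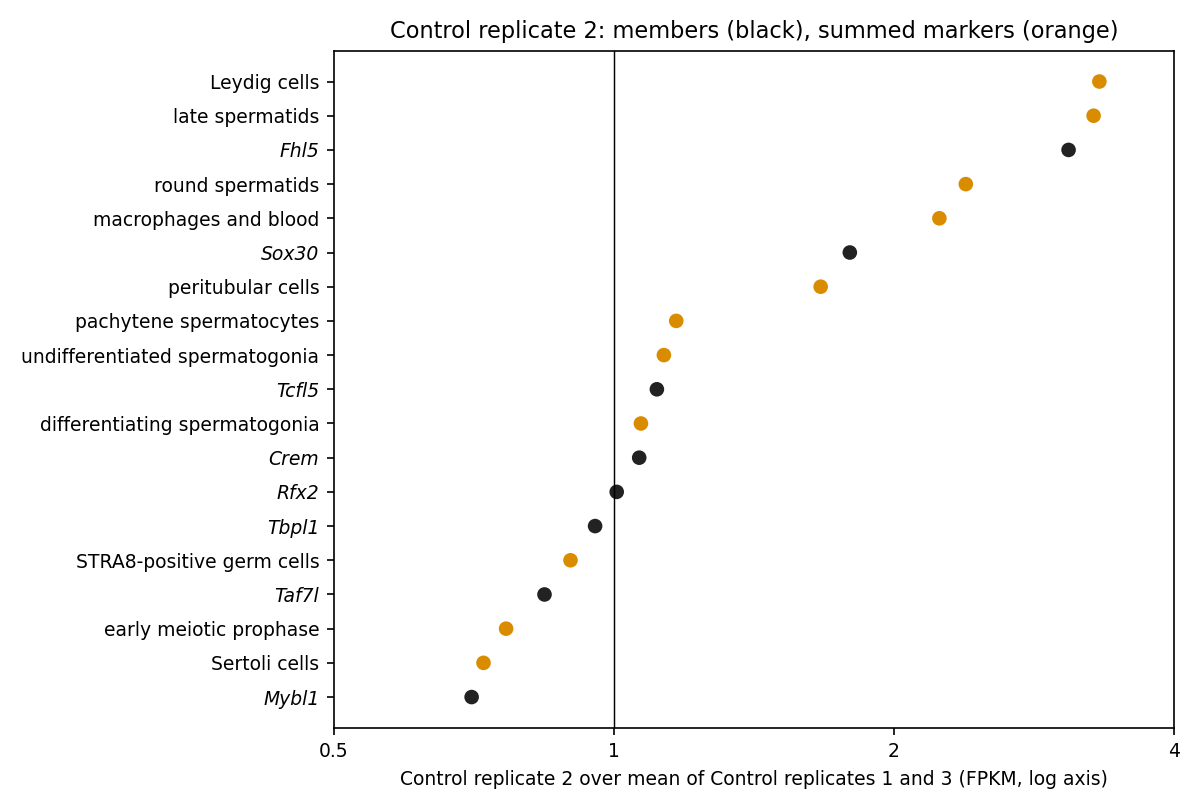
Level in control replicate 2 over the mean of control replicates 1 and 3 (horizontal log axis, ratio of FPKM) for the 8 regulators (black) and for the summed markers of each cell type list (orange). The summed Leydig cell markers (3.33, a ratio that rests on *Insl3*), the summed late spermatid markers (3.28) and *Fhl5* (3.08) lay highest, and *Mybl1* lay lowest at 0.703.

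Over the 6 libraries, the genes most like the mean standardised profile of the 8 regulators were *Cfap97* and *Smu1* (both Pearson r = 0.999), *Hdac3* (0.999), *Ankrd42* (0.998) and *Rnls* (0.997), out of 8921 candidates that averaged 5 FPKM or more. The r are a description over 6 points, of which the 3 of each genotype lie together. The sizes of the falls differed, from a log2 fold change of -0.25 for *Hdac3* (adjusted p = 0.027) to -1.50 for *Rnls* (adjusted p = 0.00087).

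The coordinates and exonic lengths of all 8 genes in the table are those of GENCODE M21 on GRCm38. The annotation holds 1 transcript of *Sox30*, 2 of *Fhl5*, 3 each of *Tcfl5* and *Taf7l*, 4 of *Tbpl1* and 5 each of *Mybl1* and *Rfx2*. In *Mybl1*, *Sox30*, *Rfx2*, *Taf7l* and *Fhl5*, every window of 100 transcript bases occurs in no other annotated gene. In the 3 other genes such windows made up 95.9% (*Tcfl5*), 96.2% (*Crem*) and 90.3% (*Tbpl1*), because their exons overlap those of a gene on the opposite strand. The overlap is 234 bases with *Col9a3*, 472 bases with *Gm6225* and 407 bases with *Slc2a12*. Whether the counting used strand is not given in the sources used here, so fragments in these stretches cannot be assigned to a strand. The overlapping genes were low, at most 4.53 FPKM for *Col9a3*, 1.96 FPKM for *Gm6225* and 0.210 FPKM for *Slc2a12* in any library.

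To show what the promoters of the regulators hold, the 250 bases before the annotated start were searched on both strands for motifs of the factor families described above. RefSeq entries (GRCm38.p6) were at hand for 6 of the 8 genes, with 7 starts in all, and *Mybl1* and *Crem* had none. The motifs, with the share of 32851 such windows of all genes that hold each, were the MYB element AACNGTT (3.8%), the RFX half-site GTTGCC (10.4%), the SOX element ACAAT (27.7%), the E-box CACGTG (6.02%), TATAAA (12.4%), the cAMP response element TGACGTCA (1.55%) and its half-site TGACG (17.8%), which is contained in it. Positions are those of the first base of a match on the strand of the gene, counted back from -1, the base before the start.

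The promoter of *Rfx2* is shown because a MYB element and an RFX half-site overlap in it, at -120 and -116, and capitals mark this stretch. The cAMP response half-site at -224 lies before the bases shown. The promoter of *Taf7l*, the risen gene, holds TATAAA on both strands, at -150 and -148, and an E-box at -49, all in capitals. Its SOX element at -219 is on the opposite strand and lies outside the bases shown. The promoter of *Fhl5*, the gene with the largest fall among the 8, holds a SOX element at -43, in capitals. The stretches are chr17:56831009-56831148, chrX:134476491-134476650 and chr4:25242853-25242972, all on the minus strand and written 5′ to 3′.
Rfx2: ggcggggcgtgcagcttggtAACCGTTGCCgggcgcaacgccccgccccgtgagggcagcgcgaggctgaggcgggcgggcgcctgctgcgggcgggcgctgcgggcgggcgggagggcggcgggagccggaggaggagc
Taf7l: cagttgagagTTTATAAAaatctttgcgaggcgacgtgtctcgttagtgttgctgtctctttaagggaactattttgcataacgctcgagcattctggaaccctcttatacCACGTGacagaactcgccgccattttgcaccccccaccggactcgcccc
Fhl5: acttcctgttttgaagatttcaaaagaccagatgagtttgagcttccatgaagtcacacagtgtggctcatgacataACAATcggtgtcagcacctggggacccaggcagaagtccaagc

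*Sox30* held a SOX element at -25. None of the motifs was found in the windows of *Tcfl5* and *Tbpl1* or in that of the second start of *Fhl5*. A match is a description of letters in a window, and no match says only that these letters are not there.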

How the data were processed

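RNA-seq of STRA8+ testicular germ cells was grouped by genotype label, with 3 control and 3 cKO libraries. The authors deposited FPKM for 54532 genes in 1 table, with gene lengths. The submitters' processing notes name HISAT2 2.0.5 and mm10, and the counting tool is not given in the sources used here. The product of FPKM and gene length was a whole multiple of a library-specific step for 100% of the values above 0 (tolerance 0.1 of a step), which gave the fragments counted. These came to 16962222, 15364511 and 17310353 in control and 15326722, 14751933 and 14447887 in cKO replicates 1, 2 and 3. Under 3 fragments, a gene was regarded as below the floor of a library. The deposited FPKM were scaled to 0.971, 0.998 and 0.999 times these totals in control and to 1.03, 0.993 and 1.05 times in cKO, by a factor that the labels do not describe.

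The 15451 genes that averaged 1 FPKM or more were tested on log2(FPKM + 1) with limma 3.58.1 in R 4.3.3 (lmFit, then eBayes with trend). P-values were adjusted by Benjamini-Hochberg over all these genes, with a threshold of 0.05. Log2 fold changes are cKO against control on this scale and understate changes of low genes. Ratios of gene pairs were compared with exact permutation tests, two-sided, for which 0.1 is the smallest p. The computations were tested on simulated counts, drawn around a shared mean profile with set fold changes. No simulated library stood apart as control replicate 2 does, so that case was not tested. The members and the gene lists were chosen with earlier results of these data known. Genes named are the 8 regulators, *Srsf1*, the relatives paired with them, up to 4 tested genes per list with the largest absolute log2 fold change including at least 1 of each called direction, all genes of families with at most 6 tested genes, and the 5 genes most like the mean regulator profile. Outside this rule, the text names the markers of the labelled cells, the marker of a list with the highest mean over the 6 libraries, markers called or listed at 0, genes whose exons overlap a regulator, and *Ep300*, *Rhox13*, *Star* and *Cd68*. Apart from the markers of the labelled cells, these were picked after their values were seen or, for the overlapping genes, by position.

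Alternatives to these settings were adding 0.1 in place of 1, testing all genes above 0 or those averaging 5 FPKM or more, scaling by the median of ratios or by quantiles, dropping the eBayes trend, blocking on the replicate number, requiring an absolute log2 fold change of 1 or more, and leaving out each library. Added after seeing the data were limma-voom on the fragments, FPKM computed from the fragments counted, and the fragment ratio of *Fhl5* without each library.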

Additional observations from a re-analysis of the deposited data

How the results depend on the processing

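Over 16 alternatives for each of the 8 regulators, 122 of 128 log2 fold changes kept their direction and side of the threshold. For the 7 regulators other than *Mybl1*, all 112 values kept their direction. The other filters, dropping the eBayes trend, the replicate block and the limit of 1 leave every log2 fold change as it is. Under these only the call could change, so not all of the values could have changed direction. The number of regulators called lower was 6 under each alternative except a minimum absolute log2 fold change of 1, which left 4 by its construction. The number called higher was 0 under that limit and 0 with the replicate block. With the block, *Taf7l* had an adjusted p of 0.052, the highest over its alternatives (from 0.0022), and 891 genes were higher and 2870 lower. Deviations of same-numbered libraries had correlations of -0.0014, -0.11 and 0.016, and control replicate 1 correlated best with cKO replicate 2 (0.13). These values showed no pairing by number. A weak shared effect might not show in them, so they cannot decide whether libraries were paired, which the labels do not state. Of all genes, 1821 were higher and 3437 lower as reported. Quantile normalization gave 5164 higher, the limit of 1 gave 177 higher and 1939 lower, a mean of at least 5 FPKM gave 1950 lower from 8929 genes tested, and leaving out each library gave 965 to 1752 higher, the fewest without control replicates 1 (1065) or 3 (1082) or cKO replicates 1 (1178) or 3 (965). Leaving out libraries moved log2 fold changes across 0 for *Mybl1* (-0.15 to 0.12), *Creb1* (-0.026 to 0.14) and *Tbp* (-0.12 to 0.029), and quantile normalization did so for *Rfx1* (0.056) and *Tbp* (0.21). The difference in the log2 ratio of *Taf7l* to *Taf7* also crossed 0 (-0.10 to 0.083). None of *Mybl1*, *Creb1*, *Tbp* and *Rfx1* was called in the reported fit, and apart from fewer genes or libraries the cause was not tested. *Fhl5* ranged from -8.82 (limma-voom) to -4.27. With 0 to 1 fragments of *Fhl5* per cKO library, depth limits how far its fall can be measured.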
